A study of Homo sapiens with 2 samples.

Results

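Accessible chromatin was described around 8 genes that encode the transcription factors of endoderm, the germ layer that forms gut, liver, pancreas and lung: SOX17, FOXA1, FOXA2, FOXA3, GATA4, GATA6, HHEX and HNF4A. A region belonged to a gene when any of its summits lay in the GENCODE gene body or within 100 kb of it. This gave 130 of the 160327 accessible regions of the list (0.0811%), with 213 summits, and no region belonged to more than 1 gene. The cells were of H1, an established human line of pluripotent embryonic stem cells, and were thawed from frozen stocks, treated with DNase I and purified on Ficoll. The labels name no differentiation, further treatment or genotype, and the 2 samples form 1 group. ATAC-seq, in which a transposase inserts adapters into open DNA, was used, and both samples share 1 deposited peak list.

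The list holds no value per sample, and a coverage track that the sample descriptions also name was not analysed here. From the list alone no spread between samples and no test over samples was possible, and every comparison below is a description within this list. The value given for a region is the fold over background that the authors' peak caller gave its strongest summit, and how the background was made is not stated. Library depths were not analysed here. Of 8 pluripotent marker genes, all 8 had a region at some annotated start, against 0 of 3 blood markers and 4 of 5 fibroblast markers, where 81.1% of all protein-coding genes had one. A region at a start was thus common to most genes, and these counts do not by themselves identify the cells.

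In the embryo, Nodal and activin signals act through SMAD proteins and the T-box factor eomesodermin to start the endoderm programme. SOX17, an HMG-box factor, and the zinc finger factors GATA4 and GATA6 act early, in both primitive and definitive endoderm. The forkhead factors FOXA1, FOXA2 and FOXA3 can bind closed chromatin and open it for others. HHEX is a homeodomain factor of the anterior endoderm and early liver, and HNF4A a nuclear receptor of the liver and gut epithelium. In pluripotent cells the promoters of many such developmental genes are known to be CpG-rich and to carry Polycomb marks while the genes are silent.

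The sequences that the results turn on come from the highest and the missing promoters and from the strongest distal regions. The first set contrasts the promoter with the highest fold, HHEX, with the pair of HNF4A promoters, which held no region. Each line holds the 250 bases before the RefSeq start (GRCh38.p14, plus strand), with CG dinucleotides in capitals.
HHEX, chr10:92689705-92689954: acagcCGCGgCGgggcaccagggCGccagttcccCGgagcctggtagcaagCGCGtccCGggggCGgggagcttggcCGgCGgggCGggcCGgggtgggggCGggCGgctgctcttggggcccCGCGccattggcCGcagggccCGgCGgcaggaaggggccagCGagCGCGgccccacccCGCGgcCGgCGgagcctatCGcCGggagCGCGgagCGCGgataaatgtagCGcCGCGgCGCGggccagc
HNF4A upstream promoter, chr20:44355449-44355698: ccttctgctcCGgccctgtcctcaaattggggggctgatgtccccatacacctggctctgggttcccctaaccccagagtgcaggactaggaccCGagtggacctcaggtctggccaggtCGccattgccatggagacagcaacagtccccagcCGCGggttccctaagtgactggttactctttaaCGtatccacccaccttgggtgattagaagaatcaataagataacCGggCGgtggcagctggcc
HNF4A downstream promoter, chr20:44400989-44401238: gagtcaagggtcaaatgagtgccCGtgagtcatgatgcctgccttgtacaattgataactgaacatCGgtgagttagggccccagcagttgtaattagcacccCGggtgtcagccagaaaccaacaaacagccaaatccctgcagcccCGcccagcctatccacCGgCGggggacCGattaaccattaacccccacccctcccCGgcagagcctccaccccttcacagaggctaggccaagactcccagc
The HHEX stretch held 38 CG dinucleotides at 81.2% G+C. The HNF4A stretches held 8 each, at 58.4% and 58% G+C.

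The second set shows the summit and 50 bp to either side of it for the strongest distal region outside exons at FOXA1, FOXA3, HNF4A and GATA6 (hg38, plus strand). The first 3 hold a match to a motif searched, and the last is the only distal region of its gene. Windows taken likewise at HHEX (fold 9.83, with a GC box string) and FOXA2 (fold 7.88, with no match) are not printed. Capitals mark a match to 1 of the strings given further on.
FOXA1, chr14:37650503-37650603: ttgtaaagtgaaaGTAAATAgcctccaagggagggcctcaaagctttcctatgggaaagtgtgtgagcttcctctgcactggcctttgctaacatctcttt
FOXA3, chr19:45960725-45960825: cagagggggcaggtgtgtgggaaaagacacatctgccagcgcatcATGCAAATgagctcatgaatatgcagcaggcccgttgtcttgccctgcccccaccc
HNF4A, chr20:44388636-44388736: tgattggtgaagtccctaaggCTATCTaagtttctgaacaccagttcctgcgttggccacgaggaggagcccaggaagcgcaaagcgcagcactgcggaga
GATA6, chr18:22108838-22108938: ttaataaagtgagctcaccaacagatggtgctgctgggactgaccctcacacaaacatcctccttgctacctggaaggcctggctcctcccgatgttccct
The capitals in the FOXA1 window are a forkhead string on the other strand (GTAAATA, from position 14 of the window). Those in the FOXA3 window are the octamer bound by POU factors (ATGCAAAT, from position 46), and those in the HNF4A window a GATA string on the other strand (CTATCT, from position 22).

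At the gene starts the 8 genes were mostly accessible, at low fold. A summit lay within 1000 bp of the canonical start of 7 of the 8 genes, where 76.8% of 20033 protein-coding genes had one, so the count itself is near the background. The folds of the 7 ran from 2.94 to 5.76 with a median of 3.61, against a median of 9.46 over all protein-coding genes with a region there. From highest to lowest the order was HHEX (5.76), GATA4 (4.53), SOX17 (3.71), GATA6 (3.61), FOXA3 (3.32), FOXA1 (2.99) and FOXA2 (2.94), with HNF4A at none. With no spread between samples, neighbours in this order cannot be said to differ. The order also rests on counting only summits within 1000 bp: where any base of a region within 1000 bp counted, SOX17 was at 6.23 and FOXA3 at 11.7, both above HHEX.

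The folds were also low beside those of genes with like CpG content. GATA6, FOXA1 and HHEX lay in the ninth decile of observed over expected CpG (0.927, 0.928 and 0.926), where 97.6% of 2003 genes had a region with a median fold of 9.28. Within that decile 15.3% of the genes with a region had a lower fold than HHEX, 3.48% a lower one than GATA6 and 1.59% a lower one than FOXA1. SOX17 and GATA4 lay in the fifth decile (96.0% with a region, median fold 10.6), with 3.69% and 7.28% of genes below them. FOXA3 lay in the sixth (96.6%, median 10.5) and FOXA2 in the fourth (88.0%, median 10.0), with 2.22% and 1.42% below. HNF4A lay in the third decile, where 49.7% of genes had a region.

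**Figure D1:**
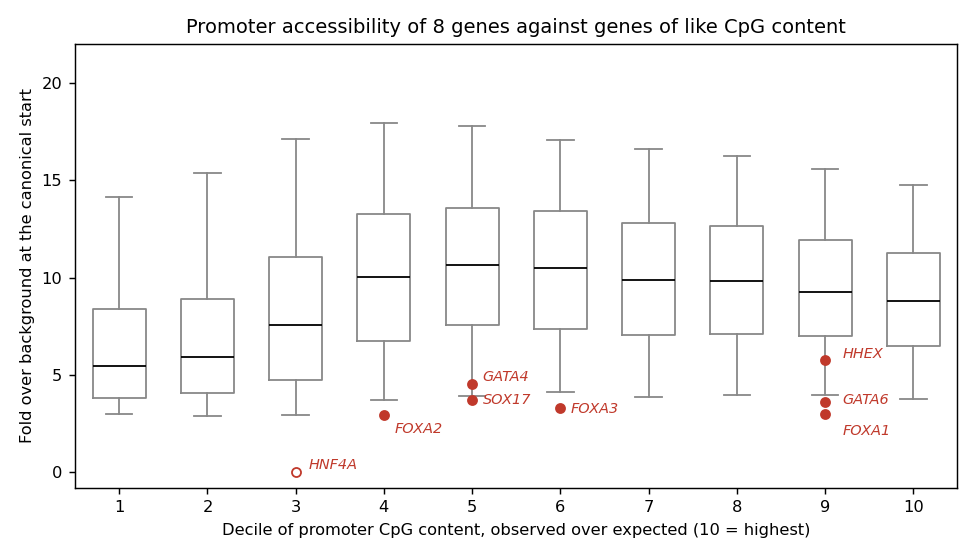
Fold over background of the strongest summit within 1000 bp of the canonical start (y axis) by decile of promoter CpG content (x axis). Boxes show the median and quartiles of all protein-coding genes with a region there and whiskers the 5th to 95th percentile, red points are the 8 genes, and the open point marks HNF4A, which had no region: the 7 others, at 2.94 to 5.76, lie below the box of their decile.

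Close relatives gave similar or lower values in places. Of 62 other forkhead, GATA, SOX and HNF4 genes, 52 had a region at the canonical start (83.9%, against 76.8% of all protein-coding genes). Their median fold was 5.53, also below the 9.46 over all protein-coding genes with a region there. SOX7 and SOX18, the other members of the SOX17 subfamily, had folds of 3.09 and 3.71, and GATA5 had 2.89. HNF4G, the paralog of HNF4A, had no region at its canonical start but had one at another start. The lowest median was that of the GATA relatives, at 2.61 over the 2 of 4 genes with a region.

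SOX17 (ENSG00000164736.6, chr8:54457935-54460892, plus strand, hg38 as for all positions) had the largest covered share of its gene body among the 8 genes. A single region of 2009 bp, chr8:54457731-54459739, ran from just before the start into the gene and held 6 summits. Only 0.596% of all regions (956) held 6 or more. The summits lay at 203, 450, 690, 1121, 1229 and 1682 bp downstream of the start, with folds of 2.94, 3.71, 2.44, 2.76, 3.11 and 6.23, so the highest lay in the coding exon and not at the start. Regions covered 61.0% of the gene body, more than in 97.7% of the 5132 protein-coding genes under 10 kb long. SOX17 is the shortest of the 8 genes (2958 bp), and the genes under 10 kb were not matched to it in length. FOXA1 (29.0%), HHEX (27.7%) and FOXA2 (20.2%) were also covered above the median of such genes (7.42%), and FOXA3 was at 6.51%.

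The 3 FOXA genes shared low values around their starts. FOXA1 (ENSG00000129514.8, chr14:37589552-37596059, minus strand) had regions at 54 bp upstream (fold 2.99), 622 bp downstream (2.55) and 953 bp upstream (2.74) of its canonical start. TTC6, a gene on the other strand, starts 326 bp from the first of these summits, so the first and the last of these regions also lie at its start. FOXA2 (ENSG00000125798.15, chr20:22580998-22585455, minus strand) had summits at 139 bp downstream (2.94) and 250 bp upstream (2.62). FOXA3 (ENSG00000170608.3, chr19:45863989-45873797, plus strand) had 3.32 at 131 bp upstream, in chr19:45864081-45864719. A stronger region of 11.7 lay 1050 bp upstream, in chr19:45862842-45863692, with its summit 82 bp from the start of SYMPK, which encodes a scaffold protein of mRNA 3′ end processing. At the outermost FOXA3 start that region counts as its own, and the fold of FOXA3 becomes 11.7, above the medians of all genes (9.46) and of its CpG decile (10.5). The same value was found with any annotated start, or with any base of a region within 1000 bp of the canonical one.

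HHEX (ENSG00000152804.11, chr10:92689955-92695647, plus strand) had the highest fold of a summit within 1000 bp of the canonical start, and further regions within the gene. The summit at 93 bp upstream (fold 5.76) lay in chr10:92689069-92690062, with weaker summits at 574 bp (2.45) and 756 bp (2.53) upstream. Regions in the first part of the gene, at 1472 bp and 2409 bp, had folds of 4.93 and 2.43, and lie near the starts of shorter transcripts. GATA4 (ENSG00000136574.19, chr8:11676959-11760002, plus strand) had 4.53 at 67 bp upstream of the canonical start, in chr8:11703547-11704283, and 4.19 at another start 11576 bp further upstream. Its outermost annotated start, 27243 bp upstream of the canonical one, had no region. GATA6 (ENSG00000141448.11, chr18:22169589-22202528, plus strand) had 1 region of 1153 bp at its start, chr18:22168818-22169970, with folds of 3.61 and 3.15 at 107 and 487 bp upstream. The first of these summits lay in an exon of the antisense gene GATA6-AS1.

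HNF4A (ENSG00000101076.20, chr20:44355699-44432845, plus strand) had no summit within 1000 bp of any of its 10 annotated starts. These fall into the upstream group, at the canonical start used in pancreas, and the downstream group, from 45540 to 45702 bp further on, used in liver. The nearest region to the canonical start lay 19452 bp upstream, at the start of R3HDML (fold 6.84). Inside the gene were 2 intronic regions, at 28847 bp (5.48) and at 32987 bp (11.2). The second, chr20:44388423-44388990, is the HNF4A window printed above. It lies between the start groups, and its fold exceeded all 7 promoter folds.

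**Figure D2:**
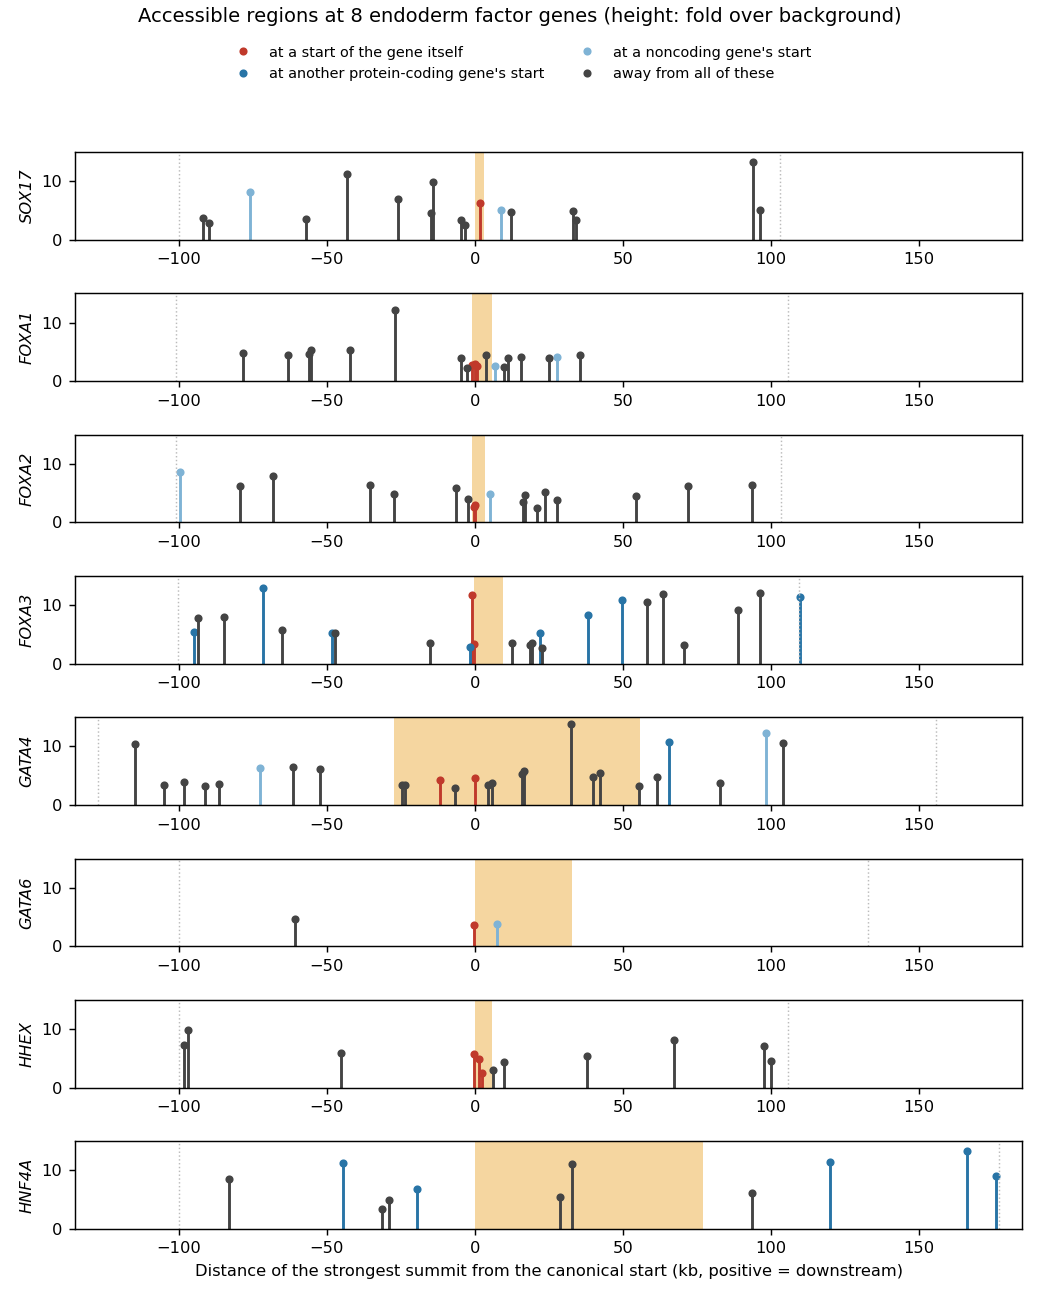
Regions at the 8 genes by distance of the strongest summit from the canonical start (x axis, kb) and fold over background (height of each stem). Shading marks the gene body, dotted lines the edges of the 100 kb windows, and colours the kind of place: the red stems at the genes' own starts are low apart from 1 at FOXA3, which has its summit 82 bp from the SYMPK start.

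The genes differed in how many regions surrounded them. By count GATA4 and GATA6 stood at opposite ends, and by density of all regions FOXA3 and GATA6 did. GATA4 had 26 regions, FOXA3 24, FOXA1 19, FOXA2 18, SOX17 17, HHEX 12, HNF4A 11 and GATA6 3. Windows differ in length with the gene body, from 203.0 kb at SOX17 to 283.0 kb at GATA4, so the density is the fairer measure. It was 11.4 regions per 100 kb at FOXA3, 9.20 at FOXA1, 9.19 at GATA4, 8.80 at FOXA2, 8.38 at SOX17, 5.83 at HHEX, 3.97 at HNF4A and 1.29 at GATA6. The median protein-coding gene had 6.42 (10th to 90th percentile 3.05 to 10.3), and the genome as a whole 5.46. Of all protein-coding genes 94.5% had a lower density than FOXA3, 17.5% a lower one than HNF4A and 2.93% a lower one than GATA6. These counts include regions at the starts of other genes. With distal regions alone GATA4 was the densest of the 8 genes, at 8.13 per 100 kb (92.8% of genes lower). FOXA3 was then at 6.67 (80.8% lower), also below FOXA2 (7.34), FOXA1 (7.26) and SOX17 (6.9), and GATA6 was still lowest at 0.429.

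**Figure D3:**
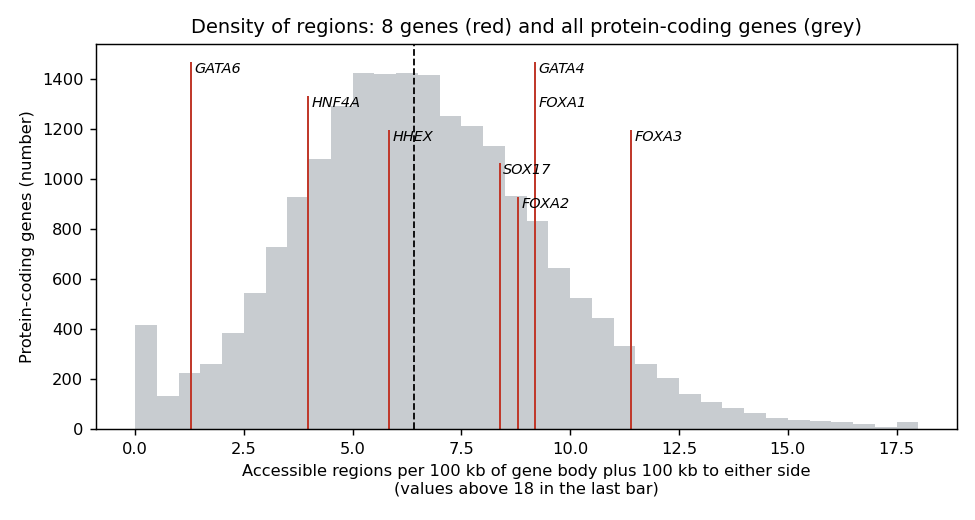
Regions per 100 kb of window (x axis) for all protein-coding genes (grey bars, number of genes on the y axis, dashed line at the median of 6.42) and the 8 genes (red lines). GATA6 at 1.29 lies in the low tail and FOXA3 at 11.4 in the high one. Regions at the starts of other genes are counted.

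The GATA6 window of 232.9 kb held 1 region upstream, chr18:22108767-22108987 with its summit 60701 bp before the start (fold 4.58), the promoter region, and 1 region in a coding exon 7513 bp into the gene (3.73). The next summit lay beyond the window, 147.2 kb on, a stretch from 22177102 to 22324288 that was the longest gap between summits at any of the 8 genes. FOXA1 came next with 86.5 kb. All bases of the window are sequenced in hg38 (0 unknown), its G+C content was 43.9% against 38.6% to 53.1% at the other genes, and chromosome 18 as a whole had 5.07 regions per 100 kb. Among the 6010 genes in the 3 highest CpG deciles, 0.283% had a density as low as that of GATA6.

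The low density went beyond the window. From 1 Mb before to 1 Mb after the canonical start, GATA6 had 59 regions, the fewest of the 8 genes, with 0 to 6 in each 100 kb bin. FOXA2 had 84, GATA4 108, HNF4A 110, HHEX 125, SOX17 132, FOXA1 138 and FOXA3 193. At GATA4 the bins on either side of the start held 11 and 12 regions, where the median of the other 18 bins was 4. The highest GATA4 bin was not at the start: it lay 200 to 300 kb upstream and held 13. At FOXA2 the bins on either side of the start held 8 and 10, where the median of the others was 2.5. At GATA6 they held 2 and 1, where the median of the others was 3.

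**Figure D4:**
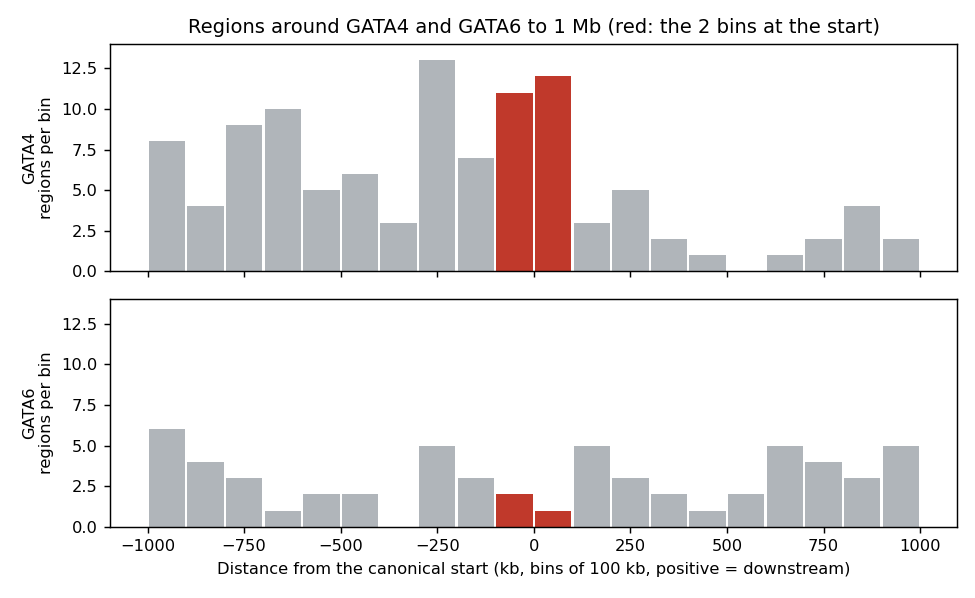
Number of regions by strongest summit (y axis) in 100 kb bins out to 1 Mb on either side of the canonical start (x axis) of GATA4 and GATA6. The bins at the start (red) hold 11 and 12 regions at GATA4 and 2 and 1 at GATA6, within a 2 Mb stretch of 108 and 59 regions. The highest GATA4 bin, 200 to 300 kb upstream, holds 13.

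By place, 14 of the 130 regions lay at a start of the gene itself (3 of them also at the start of another protein-coding gene), 14 at the start of another protein-coding gene, 9 at that of a noncoding gene and 93 at none of these. Any annotated start of the gene itself counted here, but only the outermost start of each other gene. Counted as for all regions, with only outermost starts as promoters, 76.2% were distal (99 regions, 95% exact binomial interval 67.9% to 83.2%, counting error only), against 86.5% of the whole list. The neighbours' starts carried the higher folds: their median was 9.96 over the 14 protein-coding ones and 5.13 over the 9 noncoding ones. The median was 4.75 over the 93 at none of the starts counted and 3.46 over the 14 at the genes' own starts. The protein-coding neighbours lay at FOXA3 (8 regions, among them the starts of DMWD at 13.0 and NANOS2 at 10.9), HNF4A (5, with SERINC3 at 13.3) and GATA4 (1, NEIL2 at 10.8). SOX17, FOXA1, FOXA2, GATA6 and HHEX had none apart from the start that FOXA1 shares with TTC6.

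At FOXA3 and HNF4A most regions lay nearer to other genes. Distances were taken here to the outermost start of each gene. The gene itself had the nearest protein-coding start for 71 of the 130 regions: all 18 at FOXA2 and all 3 at GATA6, 17 of 26 at GATA4, 13 of 17 at SOX17, 9 of 19 at FOXA1, 8 of 12 at HHEX, 2 of 11 at HNF4A and 1 of 24 at FOXA3. At FOXA1 the start of TTC6 lies so close that, by outermost starts, it takes the other 10. From the canonical FOXA1 start these summits are nearer to FOXA1, the closest at 54 bp against 326 bp to TTC6. The GATA4 intronic region of fold 13.8 likewise counted for NEIL2 (33074 bp), though the canonical GATA4 start lies 32363 bp away.

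Folds were lower close to the genes than further out. The median over all 130 regions was 4.90, against 5.38 for the whole list. It was 3.84 over the 49 regions in a gene or within 10 kb of it and 5.73 over the 81 beyond. The near median was below the far one at all 8 genes, where 44.0% of 18735 protein-coding genes showed this, but at SOX17 (4.73 and 4.96) and HNF4A (8.32 and 8.52) the difference was small and at GATA6 it rested on 2 regions and 1. At FOXA3 it was 3.43 and 7.88, and at HHEX 4.33 and 7.02. Starts of other genes are among the far regions, and the genes' own starts (median fold 3.46) are among the near ones. Over the 99 distal regions, of which 6 lie at a start of the gene itself other than its outermost one, the near median was lower at 5 of the 7 genes with regions of both kinds, where the share of all genes was 51.4%, and was higher at GATA4 (4.36 and 3.94) and HNF4A (8.32 and 5.49). Without regions at any annotated transcript start it was again lower at 5 of 7, against 52.0% of 14565 genes. FOXA2 was then at 4.9 for both to the digits given, and 1 to 5 near regions were left at each gene except GATA4, which had 12, and GATA6, which had none.

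**Figure D5:**
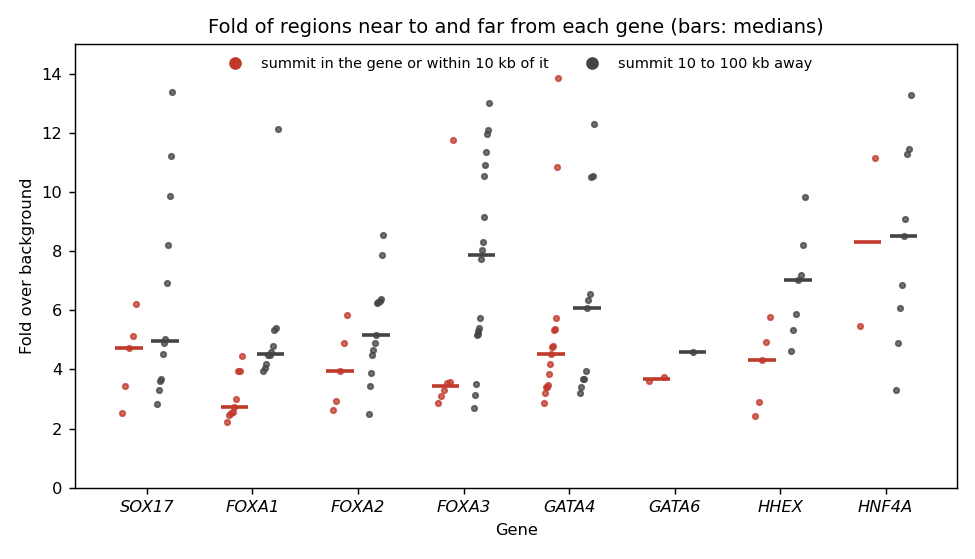
Fold over background (y axis) of each region with its strongest summit in the gene or within 10 kb (red) or 10 to 100 kb away (grey), by gene, with bars at the medians. The red median is below the grey one at all 8 genes, narrowly so at SOX17 and HNF4A and with 3 points in all at GATA6.

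Regions of high fold were scattered over the distal sequence of 5 genes. A fold of 10 or more was reached by 19 of the 130 regions (14.6%, against 16.6% of all regions) and by 10 of the 99 distal ones (10.1%, against 14.2%). By outermost starts, the gene itself had the nearest protein-coding start for only 4 of these 10. At GATA4 the highest was an intronic region 32363 bp downstream of the canonical start, chr8:11736250-11736748 (13.8), with 10.5 at 114646 bp upstream and 10.5 at 104189 bp downstream, in an intron of FDFT1, a cholesterol synthesis gene. At SOX17 they were 13.4, in an intron of the photoreceptor gene RP1 93931 bp downstream, and 11.2 at 43113 bp upstream, chr8:54414636-54415438. FOXA1 had 12.1 at 27111 bp upstream, in an exon of TTC6, chr14:37622107-37623050. FOXA3 had 12.1, 12.0 and 10.5 between 58200 and 96449 bp downstream, the first in an intron of NOVA2, which encodes a neuronal splicing factor, and HNF4A had its intronic 11.2. FOXA2 reached 8.53, at the start of a noncoding gene 99632 bp upstream, and 7.88 at 68275 bp upstream. HHEX reached 9.83, in an intron of the mitotic kinesin gene KIF11.

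FOXA2 was flanked by noncoding genes rather than coding ones. LINC00261, a noncoding RNA gene downstream that is known from endoderm, had a region at its start with a fold of 4.88, at 5251 bp. Within its body lay 5 more, with folds from 2.48 to 5.16. On the upstream side a region of 5.84 lay 6262 bp away, in an intron of LNCNEF.

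Regions at these genes were wider and richer in G+C than the list. The median width was 578.5 bp against 447 bp, 42.3% held more than 1 summit against 30.7%, and the sequence within 50 bp of the summit had a median G+C content of 60.4% against 51.5%. Over distal regions the G+C medians were 57.4% and 50.5%.

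Motif strings were counted within 50 bp of the strongest summit, on both strands. Intervals are 95% exact binomial ones that cover counting error only, and no overlap between matches of different motifs was removed. A match is a description of the letters and not of binding.

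GATA, forkhead, SOX and HNF4 strings, of the families of 7 of the 8 genes, were no more frequent than in the whole list. No string was searched for HHEX, a homeodomain factor. GATA strings (AGATAA or AGATAG, and the same with T first: TGATAA or TGATAG) occurred in 13 regions (10.0%, 5.43% to 16.5%), against 11.6% of all regions.

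Forkhead strings (TGTTTAC or TATTTAC or TGTTTGC) occurred in 4 (3.08%, 0.845% to 7.69%), against 4.89%. By gene, they lay in 3 of the 61 regions at the 3 FOXA genes, 2 at FOXA1 and 1 at FOXA2, and in 1 of 12 at HHEX.

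SOX strings (CCATTGT or CTATTGT or CCTTTGT) occurred in 5 (3.85%, 1.26% to 8.75%), against 7.77%. They lay in 3 of 19 regions at FOXA1, 1 each at FOXA2 and GATA4, and none of the 17 at SOX17.

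HNF4 strings (CAAAGTCCA or CAAAGGTCA) occurred in 0 of 130, which allows a share of up to 2.80% by the exact interval, against 0.19%. The intervals of these 4 motifs all hold the share of the whole list. Written backwards, GATA strings occurred in 6.92% of these regions against 10.1% of all, and SOX strings in 1.54% against 4.26%. Backward forkhead strings occurred in 2.31% against 2.9%, and backward HNF4 strings in 1.54% against 0.213%. The part of the higher G+C content of these regions in the 4 shares was not tested. GATA strings lay in 2 of the 29 regions at GATA4 and GATA6, both at GATA4, and in 3 each at SOX17 and FOXA2. Both FOXA1 regions with a forkhead string lay in introns of TTC6, at 55304 and 63100 bp upstream, and the first is the FOXA1 window printed above.

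Of the factors of the pluripotent state and its exit, T-box strings (GGTGTGA) occurred in 5 regions (3.85%, 1.26% to 8.75%), against 1.55%. Of these, 2 lay at FOXA2 and 1 each at SOX17, FOXA1 and GATA4. The SOX17 one is the region of fold 11.2 at 43113 bp upstream, which also held a GATA string. FOXH1, a forkhead partner of SMAD proteins, had a match (AATCCACA or AATACACA) in 2 regions (1.54%, 0.187% to 5.45%), against 0.792%, both upstream of GATA4.

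The octamer occurred in 1 region (0.769%, 0.0195% to 4.21%), against 2.31%, the FOXA3 window printed above. The core motif of CTCF, the factor of chromatin loop anchors, occurred in 3 (2.31%, 0.478% to 6.6%), against 5.46%. AP-1 strings (TGANTCA) occurred in 4 (3.08%, 0.845% to 7.69%), against 4.5%, 2 of them at HHEX. The intervals of these 5 motifs also hold the share of the whole list at this width. Within 100 bp of the summit T-box strings lay in 11 regions (8.46%, 4.3% to 14.6%), against 3.02% of all regions. That interval does not hold the share of the list. The FOXH1 interval at that width (1.71% to 9.78%) had its lower end at the share of the list (1.71%). The backward T-box string occurred, within 50 bp, in 0.769% of these regions and 2.05% of all. No allowance was made for the number of motifs and widths compared.

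For TEAD factors and the GC box the interval did not hold the share of the list at this width. TEAD strings (CATTCCA or CATTCCT) occurred in 2 regions (1.54%, 0.187% to 5.45%), against 8.3%, and in 2.02% of distal regions (0.246% to 7.11%) against 9.07%. Within 100 bp this was lost for TEAD strings, at 10 regions (7.69%, 3.75% to 13.7%) against 13.4%. The backward strings occurred, within 50 bp, in 1.54% of these regions and 1.6% of all.

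The GC box (GGGCGG), bound by SP factors, occurred in 33 regions (25.4%, 18.2% to 33.8%), against 10.3%, with 12 of 24 at FOXA3 and 8 of 26 at GATA4. The same letters written backwards occurred in 26.2% of these regions and in 10.1% of all. The G+C content given above was higher too, and its part in this share was not tested. Regions at 1 gene share their surroundings and are not independent.

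The starts matched in the RefSeq promoter table (250 bases before to 50 after, GRCh38.p14) were 6, for FOXA1, FOXA3, GATA6, HHEX and both HNF4A groups. They held 34, 37, 25 and 44 CG dinucleotides at the first 4 and 11 at an HNF4A start, where the median promoter had 14. Which HNF4A group that count belongs to is not recorded, and the count of the other is not given. The GC box lay in 5 of the 6, against 44.95% of 35116 promoters, and a GATA string lay in both HNF4A promoters, against 24.97%. A forkhead string lay in that of FOXA1, against 9.57%. No SOX or HNF4 string lay in any of the 6, against 9.95% and 0.79%.

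Other genes of the endoderm pathway were measured in the same way, beside 76.8% of all protein-coding genes with a region and their median fold of 9.46. The lists overlap. SOX7 is in both the definitive and the primitive endoderm list, and SOX7, GATA5 and FOXH1 are also among the relatives above. Of 13 genes of the upstream signal and primitive streak, all 13 had a region at the canonical start, with a median fold of 5.86. The highest were ACVR2A (11.3), an activin receptor, and SMAD4 (10.7), the shared SMAD partner, and the streak factors EOMES (5.86), MIXL1 (5.47), GSC (4.49) and LHX1 (3.80) were lower. All 8 definitive endoderm genes had a region (median 6.89), led by CER1 (17.0), a secreted Nodal inhibitor, and KIT (9.06). Of 6 primitive endoderm genes 5 had one (median 6.99), led by NID2 (10.5) and DAB2 (10.3), and PDGFRA had none there. Of the 9 later liver and gut genes reported here 4 had one, against 76.8% of all protein-coding genes (median 4.47): PROX1 (5.78) and PDX1 (5.47) were the highest, with ONECUT1 (3.46) and CDX2 (2.77). The genes of the secreted liver proteins AFP, ALB, TTR, APOA1 and APOA2 had none at the canonical start. AFP, ALB and TTR each had a region at another annotated start. No annotated start of APOA1 or of APOA2 had a region, as was the case for HNF4A.

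Among relatives the densest surroundings were those of FOXH1 (15.3 regions per 100 kb), FOXP4 (12.9) and FOXR1 (12.9), against 11.4 at FOXA3. The medians were 7.12 over 38 forkhead relatives, 7.92 over 19 SOX relatives and 7.74 over 4 GATA relatives, against 8.59 over the 8 genes.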

How the data were processed

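The authors deposited 1 peak list for both samples, with 1 row per summit. Per the submitters' processing notes the build was GRCh38. The list is called, in the descriptions of both samples, an optimal set from an overlap. Those sources do not state the aligner, the peak caller or its settings. The deposited values are a fold over background (a ratio), −log10 p and −log10 q of the caller, a score derived from the −log10 p, and the position of the summit. The fold and −log10 p were used inside this list alone, for description, ranking and filtering.

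Rows that share their coordinates are summits of 1 region, which was given the fold of its highest summit. Genes, starts and exons came from GENCODE 44, and sequence from hg38, in which 0 regions passed a chromosome's end. The canonical start is that of the Ensembl canonical transcript. CpG content was taken over 300 bp to either side of it. A distal region had no summit within 1000 bp of any gene's outermost 5′ end. Python 3.11.15, pandas 2.3.3, scipy 1.17.1 and pysam 0.24.0 were used, and the counting steps were tested on simulated data.

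The genes, gene lists and motifs were chosen with earlier results of these data known. All 8 genes are named, each with the region at its canonical start or the one nearest to it and its strongest distal regions. Relatives are named where closest in family or among the 3 densest, and other list genes where among the 2 highest or without a promoter region. An item of the liver and gut list is not reported here. Further genes and regions, and the promoter sequences, were chosen after their values were seen. Alternatives varied the window, the summit, the start, the promoter window, the −log10 p and the motif window.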

Additional observations from a re-analysis of the deposited data

How the results depend on the processing

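Of 128 values recomputed under an alternative setting, 90 stayed within their limit and 38 moved. The 1 alternative chosen after seeing the data left out regions at any transcript start from the comparison of near and far folds. No paired analysis was possible because there is 1 group and 1 list without values per sample, so no replicate could be left out either. With 20 kb to either side the 8 genes had 61 regions, in place of 130: 7 at SOX17, 11 at FOXA1, 8 at FOXA2, 9 at FOXA3, 15 at GATA4, 5 at HHEX and 4 at HNF4A. With 50 kb the counts that moved by over 1.5 times were 11 at SOX17, 14 at FOXA3 and 7 at HHEX, and the median fold was 4.6. Regions at or above the median −log10 p of the list (27.7) numbered 63: 9 at SOX17, 5 at FOXA1, 9 at FOXA2, 10 at GATA4, 0 at GATA6 and 6 at HHEX, and 4 of the genes then had a promoter region, those of FOXA2, FOXA3 and GATA6 being lost. Over every summit the median fold was 4.19, and with any annotated transcript start as a promoter 63.8% of regions were distal. SOX17 lost its promoter region when only the strongest summit counted, and had 6.23 where any base of a region counted. The outermost start gave GATA4 none and FOXA3 a fold of 11.7, which turns its place from below to above the median of all genes. With 100 bp to either side of the summit the motif shares were 18.5% (GATA), 9.23% (forkhead), 12.3% (SOX), 7.69% (TEAD), 36.2% (GC box), 8.46% (T-box), 4.62% (FOXH1) and 4.62% (CTCF), where all regions had 23.9%, 9.67%, 13.3%, 13.4%, 14.8%, 3.02%, 1.71% and 6.45%. The TEAD interval then held the share of all regions and the T-box one did not, and within 50 kb the octamer share was 0%. The narrower windows and the −log10 p limit count fewer regions, and the wider motif window more bases, by construction. All 3 GATA6 regions lie below the median −log10 p of the list, and with the depth unknown no limit of detection can be given for HNF4A or for the gap at GATA6.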
